A study of Mus musculus with 2 samples.

Results

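Transcripts of 31 glycolysis and hypoxia response genes were followed in mouse cranial neural crest cells (CNCCs) at E11.5, the embryonic stage when the facial prominences grow and meet. The genes were taken as a named module and were found by their symbols among the 32285 genes of the count tables. Aldoa was the only one with more than 1 row under its symbol, so 32 rows matched, and its row with nearly all of the UMIs was used (ENSMUSG00000030695). Values are numbers of unique molecular identifiers (UMIs), random tags put on each captured transcript to keep PCR copies from being counted again. By role, the module held 2 glucose transporters, 2 hexokinases, 7 genes of upper glycolysis, 6 of lower glycolysis, 5 of lactate and pyruvate handling and 9 genes of the hypoxia response.

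Glycolysis breaks glucose down to pyruvate in the cytosol, and lactate dehydrogenase can turn pyruvate into lactate, which leaves the cell through monocarboxylate transporters. When oxygen is scarce, the hypoxia-inducible factors are no longer degraded, bind DNA at hypoxia response elements and raise transcription of most glycolytic enzymes together with genes for angiogenesis, mitophagy and collagen hydroxylation. Embryonic tissues rely strongly on glycolysis, and neural crest cells are known to use it during their migration.

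The question behind these samples was how CNCCs of the face differ when 2 transcription factor genes, Tfap2a and Tfap2b, are removed from them. Control embryos were Tfap2a wt/flox and Tfap2b wt/flox, mutant embryos were Tfap2a flox/flox and Tfap2b flox/flox, and all carried Wnt1CRE and were r26 mTmG/mTmG, a reporter that turns from red to green membrane fluorescence in cells where CRE has acted. The control embryos therefore also lose 1 allele of each gene in their CNCCs, and Wnt1CRE is known to act in the dorsal neural tube as well as in the neural crest. GFP-positive cells of 2 embryos of each genotype were sorted from heads rostral to the otic placode, pooled and made into 1 library of 3′ transcript ends per genotype. With 1 library per group there was no replicate error and no test was possible. The intervals in brackets are exact 95% intervals that cover counting error only, and they say nothing of the differences between embryos.

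There were 6148 control barcodes, which carried 83542433 UMIs in all, and 6063 mutant barcodes, which carried 79206144. After filtering, 5625 control and 5587 mutant cells were kept. Clustering without the module genes gave 3807 control and 2867 mutant mesenchyme-like cells, in which all 8 listed mesenchyme markers (among them Prrx1, Twist1 and Pdgfra) had higher CPM than in the other cells. There were 790 and 1279 neuron-like cells with 8 of 8 markers higher, 767 and 1239 brain progenitor-like cells with 8 of 8, and 261 and 202 glia-like cells with 7 of 7. An Xist UMI was found in 98.8% of the control cells and 0.107% of the mutant cells, and a UMI of a Y-linked gene in 0.036% and 82.0%, so genotype, sex and library cannot be told apart in any value below. The targeted genes were still detected in the mutant mesenchyme, Tfap2a with 19.5 CPM in the control and 13.5 CPM in the mutant library and Tfap2b with 57.9 and 48.3 CPM. Reads of 3′ ends do not separate intact from recombined alleles, so these values do not check the deletion. CPM here means counts per 1000000 UMIs, after the UMIs of a class of cells were summed within a library. Only 6 barcode sequences occurred in both libraries.

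In the mesenchyme, most of the module was higher in the mutant library. Of the 31 genes, 30 reached 100 UMIs in both libraries together, Aldoc being the exception, and 16 of these 30 (53.3%) were at least 25% higher in the mutant library, against 8.72% of the 12606 genes that reached the same number of UMIs. None of the 30 was at least 20% lower, the same ratio inverted, as were 3.13% of all genes. These 2 limits, 0.32 and -0.32 on the log2 scale, are used throughout for genes with 100 UMIs or more. The median log2 ratio of mutant over control CPM was 0.38 over the 30 genes and 0.02 over the 12606 genes. Counting intervals lay above 0 for 24 of the 30, below 0 for 1 (Ldhb) and included 0 for 5, against 21.7% of all genes above and 13.1% below. These shares depend on depth, since abundant genes have narrow intervals. At a stricter limit of 1.5-fold, 7 of the 30 were higher, namely Slc16a3, Pdk1, Bnip3, P4ha1, Hk2, Ddit4 and Ankrd37, against 3.23% of all genes. These 7 carry lactate out of cells, inactivate pyruvate dehydrogenase, act in mitophagy, hydroxylate collagen, phosphorylate glucose and restrain mTOR signalling, and include Ankrd37, which codes for an ankyrin repeat protein.

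**Figure D1:**
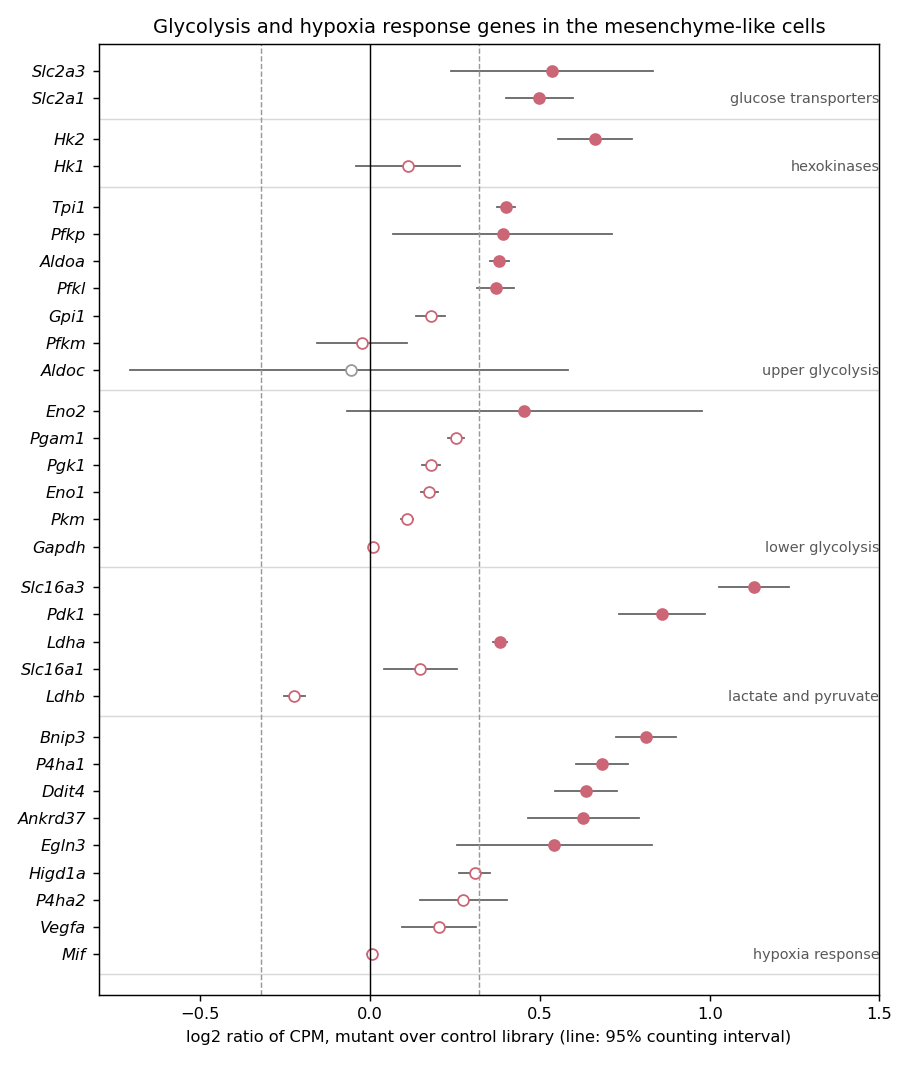
Each circle is the log2 ratio of CPM, mutant over control library, of 1 gene in the mesenchyme-like cells, with its 95% counting interval as a line, and genes grouped by role. Filled circles are at least 25% higher or 20% lower (dashed lines), and the grey circle is Aldoc, with under 100 UMIs. Slc16a3 lies farthest to the right at 1.13, Ldhb farthest to the left among the counted genes at -0.22, and Gapdh and Mif at 0.01.

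Both glucose transporters were higher. Slc2a1 (GLUT1, ENSMUSG00000028645, GRCm38 chromosome 4, 119108711 to 119137983) had 28.1 CPM in the control library and 39.6 CPM in the mutant library, for a log2 ratio of 0.50 (0.40 to 0.60). Slc2a3 (GLUT3, ENSMUSG00000003153, GRCm38 chromosome 6, 122727809 to 122801640) was close to the detection limit, with 3.13 and 4.54 CPM and a log2 ratio of 0.54 (0.24 to 0.83), and the 10 cells richest in it held 13.0% of its control and 15.9% of its mutant UMIs. The hexokinases, which trap glucose in the cell by phosphorylating it, differed from each other. Hk2 (ENSMUSG00000000628, GRCm38 chromosome 6, 82725025 to 82774454) went from 21.4 CPM in the control to 33.8 CPM in the mutant library, for a log2 ratio of 0.66 (0.55 to 0.77). Hk1 had 13.2 and 14.3 CPM, and its interval of -0.04 to 0.27 around 0.11 included 0. Slc2a1, Slc2a3 and Hk2 were thus higher in the mutant library, and a difference in Hk1 was not detectable at this depth.

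In upper glycolysis, 4 of 6 counted genes were at least 25% higher, against 8.72% of all genes in mesenchyme. Phosphofructokinase commits sugar to glycolysis, and of its 3 genes Pfkl (ENSMUSG00000020277, GRCm38 chromosome 10, 77986947 to 78010083) had 90.4 CPM in the control library and 117 CPM in the mutant library, for a log2 ratio of 0.37 (0.31 to 0.42). Pfkm had 18.5 and 18.1 CPM and a log2 ratio of -0.02 (-0.16 to 0.11). Pfkp (ENSMUSG00000021196, GRCm38 chromosome 13, 6579768 to 6648777) had only 2.77 and 3.63 CPM, with a log2 ratio of 0.39 (0.07 to 0.71), and giving each cell equal weight moved it to 0.77. The interval of Pfkl lay above that of Pfkm, which included 0. Aldoa (ENSMUSG00000030695, GRCm38 chromosome 7, 126795234 to 126800751), the aldolase that splits the hexose, had 368 CPM in the control library and 479 CPM in the mutant library and a log2 ratio of 0.38 (0.35 to 0.41). Tpi1 (ENSMUSG00000023456, GRCm38 chromosome 6, 124810586 to 124814296), which interconverts the aldolase products, had 409.5 and 540.2 CPM and a log2 ratio of 0.40 (0.37 to 0.43). Gpi1, which makes the fructose phosphate that phosphofructokinase uses, was less far apart at 160.0 and 181 CPM, for a log2 ratio of 0.18 (0.14 to 0.22). Aldoc had 88 UMIs in both libraries together and was not counted.

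The genes of lower glycolysis, where ATP and pyruvate are made, lay closer to 0. Their median log2 ratio in mesenchyme was 0.18. Against 8.72% of all genes, 1 of 6 passed the upper limit. That gene, Eno2 (ENSMUSG00000004267, GRCm38 chromosome 6, 124760053 to 124769673), the neuronal enolase, had 1.07 and 1.47 CPM from 63 and 65 UMIs, and its interval of -0.07 to 0.98 around 0.45 included 0. In cells scored as S phase its log2 ratio was -0.42, from under 100 UMIs. Gapdh had 2332 and 2344 CPM, for a log2 ratio of 0.01 (-0.0045 to 0.02), so its levels agreed to within 0.03 on the log2 scale. Between these were Pgam1 at 0.25 (0.23 to 0.28), Pgk1 at 0.18 (0.15 to 0.21), Eno1 at 0.17 (0.15 to 0.20) and Pkm at 0.11 (0.09 to 0.13), each a log2 ratio with its interval above 0. Pgk1, the ATP-making phosphoglycerate kinase, lies on the X chromosome and had 426 and 482 CPM. The Eno1 count is uncertain because Eno1b is identical to it over the last 300 bases, and Eno1b itself had 738 control and 359 mutant UMIs, for a log2 ratio of -0.63 (-0.82 to -0.45).

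Genes that handle lactate and pyruvate held both extremes of the module. Slc16a3 (MCT4, ENSMUSG00000025161, GRCm38 chromosome 11, 120948480 to 120960868), the monocarboxylate transporter known for exporting lactate, had 20.5 CPM in the control library and 44.8 CPM in the mutant library, for a log2 ratio of 1.13 (1.03 to 1.23) or 2.19-fold. Slc16a1 (MCT1), which carries lactate in either direction, had 26.3 and 29.1 CPM and a log2 ratio of 0.15 (0.04 to 0.26). Pdk1 (ENSMUSG00000006494, GRCm38 chromosome 2, 71873224 to 71903858), a kinase that inactivates pyruvate dehydrogenase, had 15.1 and 27.3 CPM, for a log2 ratio of 0.86 (0.73 to 0.99). The 2 subunits of lactate dehydrogenase went opposite ways. Ldha (ENSMUSG00000063229, GRCm38 chromosome 7, 46841475 to 46855627), whose product favours lactate formation, went from 695 to 906 CPM, for a log2 ratio of 0.38 (0.36 to 0.40), while Ldhb (ENSMUSG00000030246, GRCm38 chromosome 6, 142490249 to 142507957) went from 371 to 318 CPM, for a log2 ratio of -0.22 (-0.25 to -0.19). Ldhb stayed between -0.30 and -0.18 in every alternative computed and so did not reach the limit of -0.32.

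Of the 9 hypoxia response genes, 5 were at least 25% higher in mesenchyme, against 8.72% of all genes. The median log2 ratio of the 9 was 0.54. Bnip3 (ENSMUSG00000078566, GRCm38 chromosome 7, 138890836 to 138909519), a mitochondrial protein of mitophagy, had 30.9 CPM in the control library and 54.2 CPM in the mutant library, for a log2 ratio of 0.81 (0.72 to 0.90). P4ha1 (ENSMUSG00000019916, GRCm38 chromosome 10, 59323296 to 59373304), the catalytic subunit of collagen prolyl 4-hydroxylase, had 42.4 and 68.1 CPM and a log2 ratio of 0.68 (0.61 to 0.76). Its paralog P4ha2 had 17.8 and 21.6 CPM and a log2 ratio of 0.27 (0.15 to 0.40), under the limit. Ddit4 (ENSMUSG00000020108, GRCm38 chromosome 10, 59949669 to 59951834), an inhibitor of mTOR signalling, had 30.6 and 47.6 CPM, for a log2 ratio of 0.64 (0.55 to 0.73). Ankrd37 (ENSMUSG00000050914, GRCm38 chromosome 8, 45996902 to 46005707) had 9.82 and 15.2 CPM, for a log2 ratio of 0.63 (0.46 to 0.79), and it shares 57 exonic bases with Ufsp2 and 349 with Lrp2bp, both on the opposite strand. Egln3 (ENSMUSG00000035105, GRCm38 chromosome 12, 54178981 to 54203860), an oxygen-sensing prolyl hydroxylase that marks the hypoxia-inducible factors for degradation, had 3.32 and 4.83 CPM, for a log2 ratio of 0.54 (0.26 to 0.83). In cells scored G1 its log2 ratio was -0.31, from under 100 UMIs.

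The other hypoxia response genes were less far apart in mesenchyme. Higd1a, a mitochondrial protein, had a log2 ratio of 0.31 (0.26 to 0.35) and Vegfa (ENSMUSG00000023951, GRCm38 chromosome 17, 46016993 to 46032369), the main angiogenic growth factor, of 0.20 (0.09 to 0.31) from 25.4 and 29.3 CPM. Mif, a cytokine that is abundant in most cells, had 1672 and 1679 CPM, for a log2 ratio of 0.01 (-0.01 to 0.02). The abundant genes Mif and Gapdh thus had nearly the same level in both libraries, and the other 8 hypoxia response genes had intervals above 0.

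The promoters of 5 genes are shown because these genes carry the pattern: Slc16a3, Pdk1, Bnip3 and Ddit4 were at least 25% higher in each of the 4 classes of cells described below, and Ldhb was the only one lower in mesenchyme with an interval below 0. Each runs 5′ to 3′ on the strand of the gene, from 250 bases before to 50 after the start that RefSeq gives, on GRCm38.p6. Capitals mark the core of a hypoxia response element, ACGTG or GCGTG on either strand, and adjoining matches run together.
Slc16a3, chr11:120948817-120949116, plus strand: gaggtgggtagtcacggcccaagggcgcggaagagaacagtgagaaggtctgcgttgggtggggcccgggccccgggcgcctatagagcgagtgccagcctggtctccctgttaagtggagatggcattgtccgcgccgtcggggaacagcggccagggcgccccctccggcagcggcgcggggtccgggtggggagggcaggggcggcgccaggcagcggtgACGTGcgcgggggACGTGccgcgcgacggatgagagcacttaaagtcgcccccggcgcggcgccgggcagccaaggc
Pdk1, chr2:71872974-71873273, plus strand: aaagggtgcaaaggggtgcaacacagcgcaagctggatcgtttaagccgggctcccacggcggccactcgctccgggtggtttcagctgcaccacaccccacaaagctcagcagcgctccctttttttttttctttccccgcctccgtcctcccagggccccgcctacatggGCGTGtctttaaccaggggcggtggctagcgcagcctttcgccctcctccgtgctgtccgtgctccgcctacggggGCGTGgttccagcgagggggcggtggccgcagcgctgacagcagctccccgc
Bnip3, chr7:138909457-138909756, minus strand: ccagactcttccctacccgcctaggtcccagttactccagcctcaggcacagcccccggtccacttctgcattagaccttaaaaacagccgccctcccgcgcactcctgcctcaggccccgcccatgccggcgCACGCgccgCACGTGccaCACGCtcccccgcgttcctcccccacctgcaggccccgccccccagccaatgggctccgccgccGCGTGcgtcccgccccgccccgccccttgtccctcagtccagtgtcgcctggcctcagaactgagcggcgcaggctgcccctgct
Ddit4, chr10:59951721-59952020, minus strand: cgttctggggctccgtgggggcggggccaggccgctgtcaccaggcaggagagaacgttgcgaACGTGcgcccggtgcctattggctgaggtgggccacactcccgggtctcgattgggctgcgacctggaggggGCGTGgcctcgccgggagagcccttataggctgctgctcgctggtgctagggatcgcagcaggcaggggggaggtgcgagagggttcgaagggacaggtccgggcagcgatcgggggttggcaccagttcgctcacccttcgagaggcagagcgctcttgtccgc
Ldhb, chr6:142507908-142508207, minus strand: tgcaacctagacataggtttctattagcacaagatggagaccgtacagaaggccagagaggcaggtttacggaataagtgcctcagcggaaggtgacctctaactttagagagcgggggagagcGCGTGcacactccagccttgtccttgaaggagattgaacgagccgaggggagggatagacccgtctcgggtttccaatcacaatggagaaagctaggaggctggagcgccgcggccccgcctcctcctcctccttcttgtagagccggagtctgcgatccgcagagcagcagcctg
The core was found at 2 places in Slc16a3, 2 in Pdk1, 4 in Bnip3, 2 in Ddit4 and 1 in Ldhb. RefSeq promoters were matched by symbol for 30 of the 31 genes, Slc2a3 being the other one. A core was present in 23 of these 30 windows (76.7%) and in 43.8% of all 32817 promoter windows of the same length. It was present in 12 of 15 genes that were at least 25% higher in mesenchyme and in 10 of 14 counted genes that were not. The palindrome CACGTG, which contains ACGTG on both strands, was in 4 of the 30 windows (13.3%) and in 7.15% of all. A motif known for AP-2 factors, the family of Tfap2a and Tfap2b, GCCNNNGGC (N is any base, and both strands read alike), was in 7 of the 30 windows (23.3%) and in 16.6% of all. A match of letters is a description of the window and not a binding site. Both forms of the core hold a C followed by a G. The share of G and C ran from 36.7% to 73.7% in the 30 windows and was not matched to that of all windows.

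The median over the module was also above 0 in the other 3 classes. In neuron-like cells 11 of 29 counted genes (37.9%) were at least 25% higher in the mutant library against 6.09% of all genes, and 0 were lower against 4.40%. The median log2 ratio was 0.27 over the 29 genes and 0.01 over all genes. In brain progenitor-like cells, 9 of 28 (32.1%) were higher against 4.80% of all genes and 0 were lower against 4.28%, with medians of 0.22 and -0.01. In glia-like cells, the smallest class, 10 of 25 (40.0%) were higher against 17.2% and 1 was lower against 12.0%, with medians of 0.15 and 0.04. The median in glia-like cells was 0.35 with cells limited to a mitochondrial share of 5% and 0.31 with cells limited to 2000 to 6000 genes or scored G2M, and the order of the 4 class medians changed with such settings. Fewer UMIs were counted in glia-like cells than in any other class, 5083955 in the control and 3297323 in the mutant library. Of 25 genes counted in all 4 classes, 4 were at least 25% higher in each, namely Slc16a3, Pdk1, Bnip3 and Ddit4, and 35 of 7717 genes (0.454%) were so.

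These 4 genes differed in size from class to class. Slc16a3 went from 15.3 to 31.9 CPM in neuron-like cells, for a log2 ratio of 1.06 (0.78 to 1.35), from 39.8 to 65.1 CPM in brain progenitor-like cells, 0.71 (0.54 to 0.89), and from 27.3 to 52.8 CPM in glia-like cells, 0.95 (0.62 to 1.28). For Pdk1 the log2 ratios were 0.70 (0.36 to 1.05) in neuron-like, 0.47 (0.25 to 0.69) in brain progenitor-like and 0.76 (0.38 to 1.13) in glia-like cells. Bnip3 had 0.47 (0.31 to 0.63), 0.51 (0.33 to 0.70) and 0.56 (0.22 to 0.89), and Ddit4 0.35 (0.17 to 0.53), 0.53 (0.33 to 0.73) and 0.57 (0.35 to 0.80) in the same order. Each of the 12 intervals lay above 0.

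Other genes reached the 25% limit in some classes only, and whether the classes differ was not tested. Vegfa was among them with 12.6 and 19.2 CPM in neuron-like cells, for a log2 ratio of 0.61 (0.29 to 0.95), and 0.38 (0.16 to 0.59) in brain progenitor-like cells, against 0.20 (0.09 to 0.31) in mesenchyme. Ankrd37 had 0.62 (0.36 to 0.89) in neuron-like and 0.36 (0.04 to 0.68) in brain progenitor-like cells and 0.09 (-0.52 to 0.68) in glia-like cells. Hk2 had 0.59 (0.18 to 1.02) and 0.33 (0.15 to 0.51) in the neural classes and Slc2a1 0.42 (0.29 to 0.54) in brain progenitor-like and 0.52 (0.17 to 0.86) in glia-like cells. Pfkl was higher in neuron-like cells, 0.50 (0.34 to 0.67), and in glia-like cells, 0.55 (0.36 to 0.74). Egln3, not counted in glia-like cells, had 0.68 in brain progenitor-like cells, from 60 control and 152 mutant UMIs. In neuron-like cells Egln3 had -0.12, from 42 control and 63 mutant UMIs, with an interval that included 0. Gpi1 in glia-like cells was the only counted gene of the module that was at least 20% lower in a class, with 269 CPM in the control and 205 CPM in the mutant library, for a log2 ratio of -0.39 (-0.53 to -0.26). Counting intervals lay above 0 in all 4 classes for 12 of the 25 genes counted in all of them and for 1.17% of all genes. Gapdh stayed between 0.01 and 0.11 and Mif between -0.04 and 0.03 across the 4 classes.

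**Figure D2:**
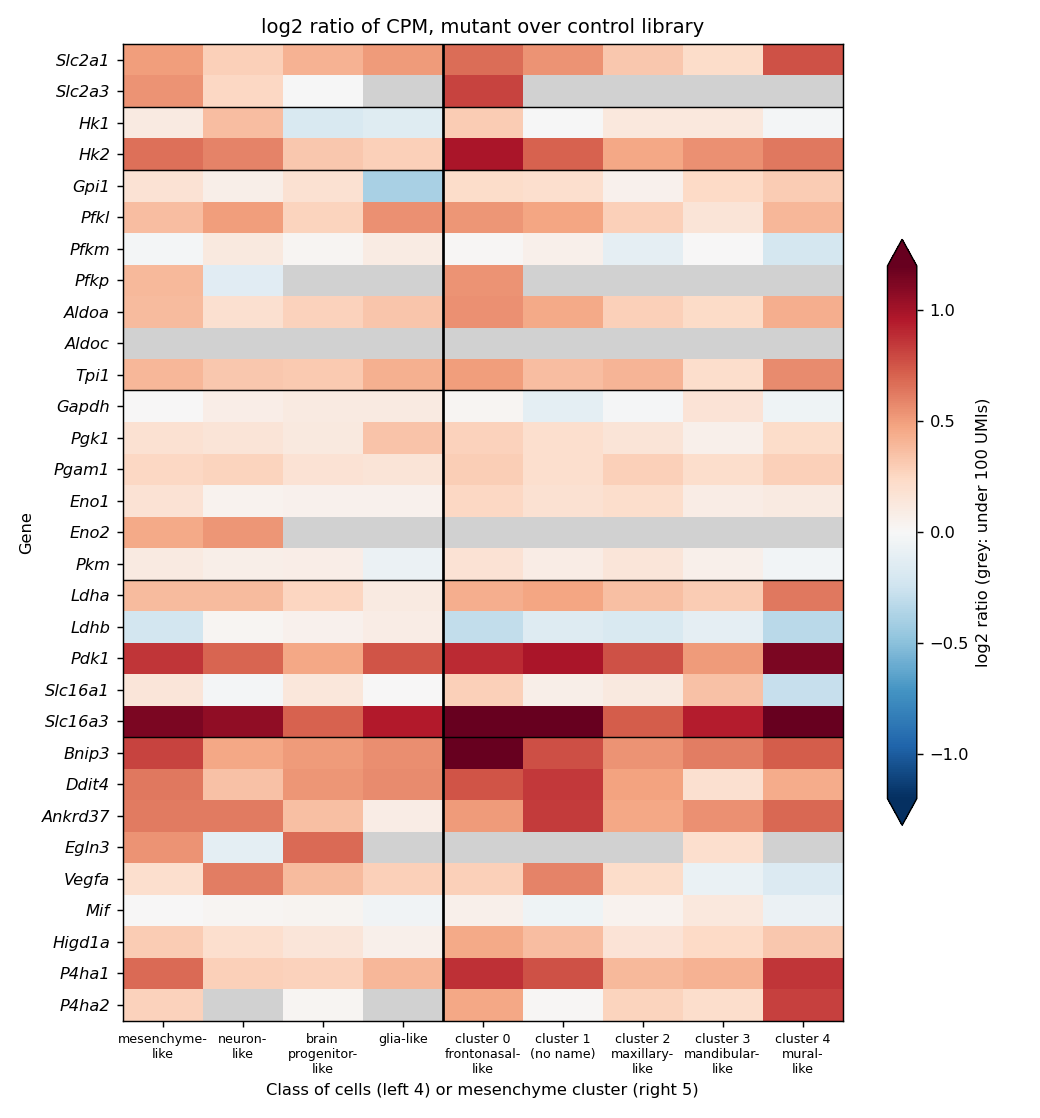
Rows are the 31 genes in order of role, columns the 4 classes of cells and, right of the thick line, the 5 mesenchyme clusters with at least 100 cells in each library. Colour gives the log2 ratio of CPM, mutant over control library, and grey marks genes with under 100 UMIs in both libraries together. Slc16a3, Pdk1, Bnip3 and Hk2 form red rows, Gapdh and Mif pale ones, and Ldhb is blue in the mesenchyme (-0.22) and its clusters.

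Levels of each gene also differed between classes in both libraries. Each gene is compared here with itself, since counts of different genes were not scaled by length. Compared with mesenchyme, brain progenitor-like cells had higher CPM in both libraries, with both counting intervals above 0, for 16 of 29 genes, among them Slc2a1, Slc2a3, Hk2, Ldha, Pgk1 and Slc16a3, and lower CPM for 3 (Hk1, Ldhb and P4ha2). Of all genes, 32.6% were higher and 21.1% lower there by the same rule. This rule sets no fold limit and lets small differences of abundant genes pass, so these shares are not a like comparison. Slc2a1 was at 83.6 and 111 CPM there and at 28.1 and 39.6 CPM in mesenchyme. Ldha was at 1123 and 1342 CPM and Ldhb at 166 and 172 CPM in brain progenitor-like cells, where Ldhb had its lowest level of the 4 classes. Neuron-like cells had lower CPM than mesenchyme for 18 of 30 genes and higher CPM for 9 (Ankrd37, Bnip3, Ddit4, Eno2, Gpi1, Hk1, Pfkm, Pfkp and Slc2a3), against 37.1% of all genes lower and 37.4% higher.

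Within the Hk, Pfk and Eno families, neuron-like cells were higher than mesenchyme for at least 1 gene and lower for another, whereas Slc16a1 and Slc16a3, and likewise P4ha1 and P4ha2, were both lower. Hk1 was at 18.4 and 23.9 CPM in neuron-like cells, its highest class in both libraries, and Hk2 at 7.69 and 11.6 CPM, its lowest. Pfkp was at 17.4 and 15.8 CPM, against 2.77 and 3.63 CPM in mesenchyme, while Pfkl was at 47.5 and 67.4 CPM, against 90.4 and 117 CPM. Pfkp shares 748 exonic bases with Pitrm1 on the opposite strand, and whether the counting used strand is not given in the sources used here. Eno2, a marker of neurons, was at 5.20 and 7.50 CPM in neuron-like cells and below 2 CPM in the other classes, and Eno1 was at 234 and 242 CPM, its lowest class. Slc16a1 was at 5.20 and 5.14 CPM in neuron-like cells and between 24.8 and 34.7 CPM in the others. P4ha2 was at 17.8 and 21.6 CPM in mesenchyme, 10.6 and 12.7 in glia-like cells and between 3.62 and 4.58 CPM in both neural classes, and P4ha1 was between 31 and 68.1 CPM throughout. Aldoa was between 283 and 486 CPM, and Aldoc stayed under 3 CPM in every class. Ldhb was highest in glia-like cells, at 503 and 536 CPM, where its log2 ratio of mutant over control was 0.09 (0.0032 to 0.18).

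**Figure D3:**
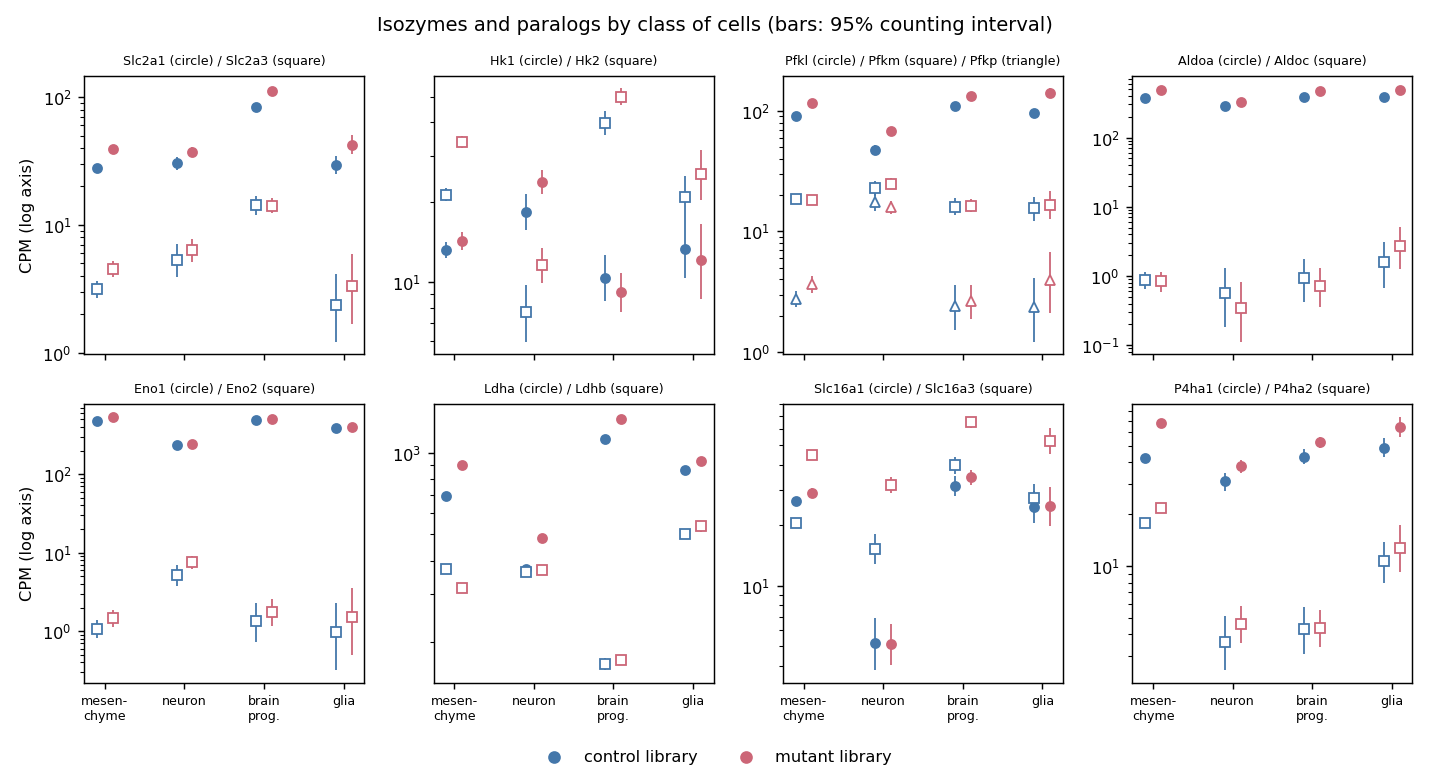
Each panel shows the CPM (log axis) of a pair or trio of isozymes or paralogs in the 4 classes of cells, blue for the control and red for the mutant library, with 95% counting intervals as bars. Hk2 and Slc16a1 are lowest and Hk1, Pfkp and Eno2 highest in neuron-like cells in both libraries, and Ldhb is lowest in brain progenitor-like cells.

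Regions of the mesenchyme were compared next. Clustering of the mesenchyme without the module genes gave 6 clusters. Cluster 0 was frontonasal-like (1192 control and 735 mutant cells), cluster 2 maxillary-like (686 and 473) and cluster 3 mandibular-like (719 and 392). Cluster 4 was mural-like (366 and 366), with Vtn, Heyl, Tagln, Zic1 and Zic4 among its leading genes. Vtn and Heyl are on the mural list, but Zic1 and Zic4 are on the list of periocular and meningeal markers, so cluster 4 may hold cells of both kinds. Cluster 1 (747 and 760) had no name, and Hoxa2, Dlx3, Dlx4 and Cyp26a1 were among its leading genes. Cluster 5 was led by neural genes such as Otx2 and Sox2, doublets by Scrublet were 45.4% of its control cells and 55.3% of its mutant cells, and with 97 control cells it was left out of the values by cluster. Without it, 16 of 30 genes were still at least 25% higher in mesenchyme and the median was 0.36.

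The median over the module was above 0 within each of the 5 clusters, though not every gene was. Ratios lay above 0 for 27 and below 0 for 1 of 28 counted genes in the frontonasal-like cluster. In the mural-like cluster 18 of 26 lay above 0 and 8 below. In the frontonasal-like one, 16 of 28 counted genes were at least 25% higher against 7.86% of all genes and 0 lower against 4.02%, with a median log2 ratio of 0.46. Cluster 1 had 14 of 26 higher against 9.67% and 0 lower against 3.92%, with a median of 0.37. In the maxillary-like cluster, 10 of 26 were higher against 4.21% and 0 lower against 4.24%, with a median of 0.27. The mandibular-like cluster had 7 of 27 higher against 4.15%, and 0 lower against 7.24%, with a median of 0.21. In the mural-like cluster 13 of 26 were higher against 11.7% and 1 (Ldhb) was lower against 6.94%, with a median of 0.36. The medians over all genes in the 5 clusters lay between -0.02 and 0.03. The order of the medians changed with the setting. Thinned to 5000 UMIs per cell, the median was 0.33 in the frontonasal-like cluster and 0.36 in cluster 1. In cells scored S it was 0.32 in the frontonasal-like cluster and 0.50 in cluster 1. In cluster 1 it was 0.11 in cells scored G1, and in the mural-like cluster it was 0.0749 over 12 genes counted in G2M cells. The differences between clusters were not tested.

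**Figure D4:**
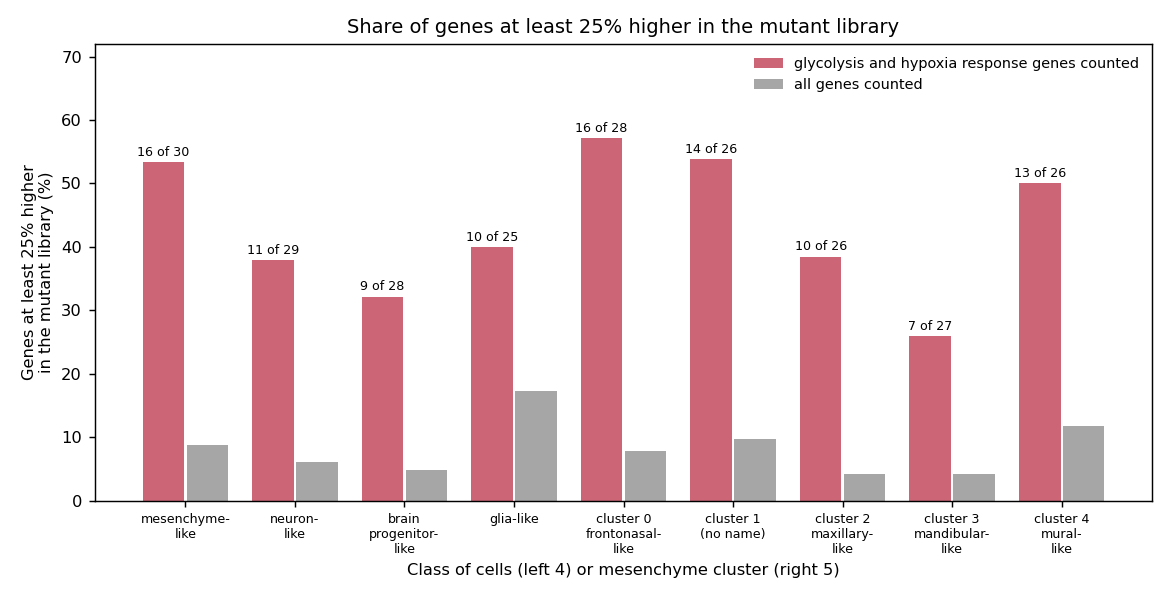
Red bars give the percentage of counted glycolysis and hypoxia response genes that were at least 25% higher in the mutant library, with their number above, and grey bars the percentage of all counted genes, for 4 classes of cells and 5 mesenchyme clusters. Red bars run from 25.9% (mandibular-like) to 57.1% (frontonasal-like) and grey bars from 4.15% to 17.2%.

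The 7 genes at least 1.5-fold higher in the whole mesenchyme kept their direction in each cluster. The sparse genes Slc2a3, Pfkp and Egln3 were each counted in only 1 cluster and Eno2 in 0, so their direction by cluster is not given. Slc16a3 had 24.2 and 63.1 CPM in the frontonasal-like cluster, for a log2 ratio of 1.38 (1.21 to 1.55), and 1.30 (1.02 to 1.60) in cluster 1. It was less far apart in the maxillary-like cluster, 0.73 (0.50 to 0.95), and the mandibular-like one, 0.94 (0.67 to 1.21), and farthest apart in the mural-like cluster, where it went from 13.3 to 43.2 CPM, 1.70 (1.2 to 2.2). In that cluster the 6 skeletal muscle markers also went from 18.1 to 55.0 CPM, with Myod1 at 0 in both libraries, and the 6 endothelial markers from 49.7 to 31.1 CPM, and their part in the ratios of the mural-like cluster was not tested. For Bnip3 the ratio was largest in the frontonasal-like cluster, with 28.5 and 65.6 CPM and a log2 ratio of 1.20 (1.04 to 1.36), against ratios between 0.54 and 0.78 in the other 4. Hk2 likewise had 0.98 (0.78 to 1.18) there, and between 0.46 and 0.70 elsewhere. The mural-like cluster held few UMIs of these genes, 96 and 155 of Bnip3 and 58 and 88 of Hk2. Whether the clusters differ was not tested. Pdk1 ranged from 0.51 (0.18 to 0.84) in the mandibular-like to 1.13 (0.61 to 1.66) in the mural-like cluster. P4ha1 had log2 ratios of 0.87 in the frontonasal-like and 0.86 in the mural-like cluster, against 0.39 in the maxillary-like and 0.42 in the mandibular-like one. Ddit4 was 0.85 (0.66 to 1.03) in cluster 1 and 0.19 (-0.07 to 0.44) in the mandibular-like cluster, and Vegfa reached the 25% limit in cluster 1 alone, with 0.60 (0.34 to 0.86).

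Of 26 genes counted in all 5 clusters, 6 were at least 25% higher in each, as were 42 of all 7865 genes counted there (0.534%). These 6 were Hk2, Pdk1, Slc16a3, Bnip3, Ankrd37 and P4ha1. Ldha was higher by this limit in 4 clusters, from 0.36 (0.32 to 0.40) in the maxillary-like to 0.63 (0.54 to 0.72) in the mural-like cluster, and had 0.31 (0.25 to 0.36) in the mandibular-like one. Ldhb was below 0 in each of the 5, from -0.11 (-0.19 to -0.03) in the mandibular-like to -0.33 (-0.44 to -0.22) in the mural-like cluster. The ratios of the 2 subunit genes of lactate dehydrogenase thus lay on opposite sides of 0 in every cluster, and on the same side in the neural and glial classes, where the log2 ratio of Ldhb was 0.02 (-0.04 to 0.09) in neuron-like cells, 0.06 (-0.03 to 0.15) in the brain progenitor-like class and 0.09 (0.0032 to 0.18) in glia-like cells, the first 2 with intervals that included 0. The log2 ratio of P4ha2 was highest in the mural-like cluster, 0.82 (0.42 to 1.24), and it had 0.02 (-0.33 to 0.37) in cluster 1.

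Levels followed the clusters too. Relative to the frontonasal-like cluster, the mural-like cluster had lower CPM for 12 of 26 genes in both libraries, counting intervals included, among them Ldha, Pgk1 and Mif, and higher CPM for 1, Ddit4, against 17.2% and 17.8% of all genes. Cluster 1 had lower CPM for 14 of 26 genes and higher for Ddit4 as well, against 8.72% and 9.62%. No fold limit was set for these counts, and abundant genes have narrow intervals, so the shares of all genes are not a like comparison. Pkm, among the 14, was at 0.96-fold in the control and 0.91-fold in the mutant library. The maxillary-like cluster had higher CPM for 6 genes (Eno1, Gapdh, Mif, Pgam1, Pkm and Tpi1) and lower for Hk1, out of 26, against 7.52% and 13.1% of all genes. These 6 were only between 1.05 and 1.13-fold higher. The mandibular-like cluster was lower for 6 of 27, against 9.64%, and higher for 2, against 6.38%. The 2 were Egln3, at 7.76 and 8.92 CPM against 2.03 and 3.98 CPM in the frontonasal-like cluster, and P4ha2, at 27.5 and 31.9 against 17.2 and 23.6 CPM.

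To see whether a few cells carried the difference, each cell was thinned to 5000 UMIs, which left out 83 control and 88 mutant mesenchyme-like cells that were shallower. The 8 hypoxia response genes without Mif, summed per cell, had a mean of 1.46 UMIs and a median of 1 UMI in 3724 control cells and a mean of 2.08 and a median of 2 in 2779 mutant cells of the mesenchyme. The 22 glycolysis and lactate genes had a median of 33 UMIs in control and 36 in mutant cells, and the difference was wider at the top of the distribution, 49 and 57 UMIs at the 90th percentile, than at the bottom, 21 and 22 at the 10th. Without thinning, the 8 genes summed to 292.6 and 404.5 CPM, for a log2 ratio of 0.47 (0.44 to 0.50), and the 22 genes to 7016 and 7844 CPM, 0.16 (0.15 to 0.17). The mean of the 8 genes went from 1.38 to 1.78 UMIs in neuron-like, from 1.77 to 2.21 in brain progenitor-like and from 1.65 to 2.00 in glia-like cells. In mesenchyme, the 10 cells richest in a gene held between 2.21% and 5.51% of the UMIs of Slc16a3, Pdk1, Bnip3, Hk2, Ddit4, Ankrd37 and P4ha1 in either library. For the sparse genes Slc2a3, Pfkp, Eno2 and Egln3 they held more, between 11.8% and 18.5%. Cells with 0 UMIs of the 8 hypoxia response genes were 24.5% of control and 16.8% of mutant mesenchyme-like cells. This share was also lower in the mutant library in the other classes, with wide overlap between the libraries.

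**Figure D5:**
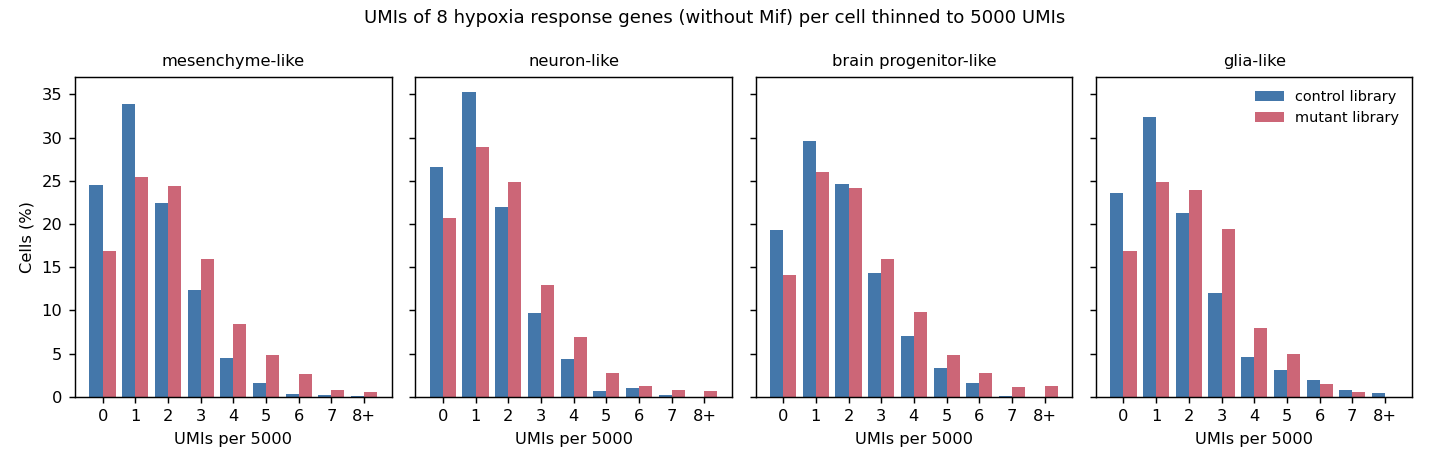
Bars give the percentage of cells by the summed UMIs of 8 hypoxia response genes (all but Mif) after each cell was thinned to 5000 UMIs, blue for the control and red for the mutant library, in 4 classes of cells. Mutant bars are lower at 0 and 1 UMIs and higher at 3 and 4 UMIs in each class, and in mesenchyme-like cells the mean goes from 1.46 to 2.08.

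Other properties of the cells moved with the groups. In mesenchyme, 77.3% of control and 71.7% of mutant cells were scored S or G2M. The median over the module was 0.24 in cells scored G1 (26 genes counted), 0.33 in S (28) and 0.29 in G2M (29). The median mitochondrial share was 4.32% in control and 4.58% in mutant mesenchyme-like cells, and with cells limited to 5% the median of the module was 0.33. Blood markers summed to 1188 CPM in the control and 2.05 CPM in the mutant mesenchyme, and 5 control barcodes held over 1% haemoglobin UMIs. Without such barcodes the median of the module was 0.37. The 6 endothelial markers summed to 18.6 and 19.7 CPM, 6 skeletal muscle markers to 7.13 and 9.68, 6 epithelial markers to 8.28 and 10.3 and 5 immune markers to 3.40 and 2.91 CPM. Among their defining genes, Ptprc and Csf1r were at 0 in the control and Csf1r and Myod1 at 0 in the mutant mesenchyme. With the shares of the 6 mesenchyme clusters held at those of the control library, 18 genes were at least 25% higher and the median was 0.37.

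Lists of related genes put the module in context. Of 30 other hypoxia response genes, 26 were counted in mesenchyme, with a median log2 ratio of 0.24. Of these, 10 were at least 25% higher and 2 lower, against 8.72% and 3.13% of all genes. Adm, the vasodilator peptide adrenomedullin, had 46 control and 113 mutant UMIs, for a log2 ratio of 1.70 (1.20 to 2.23). Lox and Loxl2, which crosslink collagen, had 0.84 (0.64 to 1.04) and 0.52 (0.42 to 0.62), Plod1, a collagen lysyl hydroxylase, 0.65 (0.52 to 0.79), and Ak4, a mitochondrial adenylate kinase, 0.67 (0.46 to 0.89). Car12, a membrane carbonic anhydrase, was lower, from 8.79 to 3.88 CPM, for a log2 ratio of -1.18 (-1.44 to -0.93). In the other classes, 1 of 17 of these genes was higher in neuron-like, 3 of 18 in brain progenitor-like and 7 of 16 in glia-like cells, against the 6.09%, 4.80% and 17.2% of all genes given above, and 0 were lower. The share in neuron-like cells was thus no larger than that of all genes.

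Other genes of glucose use were mixed. Of 30 listed glycolysis and lactate genes outside the module, 21 were counted in mesenchyme, with a median of 0.08. Of these, 6 were higher and 2 lower, against 8.72% and 3.13% of all genes. Pgam2 had 68 and 114 UMIs, for a log2 ratio of 1.15 (0.71 to 1.61), and Slc2a10 and Pfkfb1 had ratios of 0.53 (0.03 to 1.03) and 0.48 (0.10 to 0.87), all 3 below 3 CPM in both libraries. Eno1b, given above, was lower, and Slc16a7 had -0.42 (-0.89 to 0.04). Collagen modification genes had 2 of 12 higher in mesenchyme, against 8.72% of all genes, and a median of 0.20. The 2 were Fkbp10 at 0.40 (0.30 to 0.50) and P3h4 at 0.35 (0.25 to 0.45), both of which assist collagen folding or hydroxylation.

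Genes of mitochondrial oxidation did not follow the module. None of the 22 citrate cycle and pyruvate dehydrogenase genes and none of the 20 respiratory chain genes passed either limit in mesenchyme, with medians of -0.04 and -0.05 and extremes of -0.16 and 0.14. In brain progenitor-like cells 1 of 22 citrate cycle genes was higher, against 4.80% of all genes. In glia-like cells 2 of 21 citrate cycle and 1 of 20 respiratory chain genes were lower, against 12.0%. The 9 pentose phosphate genes had a median of -0.02 in mesenchyme and 0 past the limit. Of 13 counted oxygen sensing genes, among them Hif1a and Vhl, 1 passed it, Hif3a at 0.40 (0.09 to 0.71), and their median was 0.02. Among 15 regulators of glycolysis, 1 was lower, Myc with 15.1 and 11.1 CPM and a log2 ratio of -0.44 (-0.61 to -0.28). Dissociation and stress genes, which can respond to tissue handling, had 14 counted in mesenchyme, with a median of 0.00. Of these, 3 were higher and 1 lower, against 8.72% and 3.13% of all genes. Those past the limit were Junb at 0.65 (0.20 to 1.12), Hspb1 at 0.61 (0.31 to 0.92), Egr1 at 0.46 (-0.09 to 1.01) and Ddit3 at -0.63 (-0.88 to -0.37), and their part in the module was not tested.

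Some counts could hold reads of other genes. Exons of 12 of the 31 genes overlapped another gene in GENCODE M21, and apart from Pfkm and Pkm the overlaps were only on the opposite strand. The last 300 bases of 11 genes had a near copy (95% or more identical over at least 90 bases) in another gene, but only 3 of these genes had near copies among the genes of the files. Gapdh had 131 near copies, of which 5 were in the files with 19 UMIs in mesenchyme against 240934 of Gapdh, Aldoa had 2, of which 1 was in the files with 3 UMIs, and Eno1 had Eno1b, described above. Reads that match several genes were handled by the counting of the authors, so levels of Eno1, Gapdh and Aldoa are less certain than those of single-copy genes such as Slc16a3, Pdk1 and P4ha1.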

How the data were processed

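Single-cell libraries of 3′ transcript ends were made by the authors from 1 control and 1 mutant pool of sorted cells. The deposited values are raw UMI counts per gene and barcode, made by the authors with Cell Ranger (6.0.0 in the file headers) on mm10 and limited to filtered barcodes. The annotation release and strand setting are not given in the sources used here. As in the study, kept barcodes had 200 to 7500 genes and at most 10% of their UMIs from mitochondrial genes.

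The libraries were integrated with Seurat 5.3.0 in R 4.3.3 on 1963 variable genes, which left out the module, the other lists, sex-linked genes and genes the study reported as changed, and were clustered in 30 dimensions at resolution 0.05. Mesenchyme was clustered again (20 dimensions, resolution 0.2). A cluster was named "-like" if at least 3 markers of a list had higher CPM than in the other cells and its 10 leading genes did not hold more markers of another list. Scrublet in scanpy 1.11.5 called 1.65% of control and 3.06% of mutant cells doublets, and these were kept and removed in an alternative.

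UMIs were summed per class and library. Poisson and conditional binomial intervals are exact, at 95%. Only the conditional binomial ones were tried on simulated data. Those data held counting error alone, so the trial does not cover differences between cells or embryos. A gene was counted with at least 100 UMIs in both libraries together. The 82313680 control and 77251738 mutant UMIs of kept cells set the precision. Cells are not replicates, so there are no p-values.

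The genes, lists and limits were chosen with earlier results of these data known. Genes at least 25% higher or 20% lower in mesenchyme, or in 2 or more other classes, and isozyme pairs are given in full, and at most 6 genes of each other list are named. Scaling of the summed libraries by TMM (edgeR 4.0.16) and other settings were tried as alternatives. Promoters are from RefSeq on GRCm38.p6 and gene positions from GENCODE M21 on GRCm38, the assembly of mm10.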

Additional observations from a re-analysis of the deposited data

Results flagged for a closer look

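For 5 of the 31 genes the counting interval of the log2 ratio, mutant over control, lay above 0 in at least 1 class or mesenchyme cluster and below 0 in at least 1 other. The differences between these sets of cells were not tested, and the intervals cover counting error only. Gpi1 had 0.30 (0.15 to 0.46) in the mural-like cluster and -0.39 (-0.53 to -0.26) in glia-like cells. Gapdh had 0.16 (0.13 to 0.19) in the mandibular-like cluster and -0.12 (-0.14 to -0.09) in cluster 1, although its ratio in the whole mesenchyme was 0.01. Pkm had 0.17 (0.14 to 0.20) in the frontonasal-like cluster and -0.0678 (-0.13 to -0.0047) in glia-like cells. Ldhb had 0.0915 (0.0032 to 0.18) in glia-like cells and -0.33 (-0.44 to -0.22) in the mural-like cluster. Mif had 0.12 (0.09 to 0.16) in the mandibular-like cluster and -0.0665 (-0.13 to -0.0058) in the mural-like cluster.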

How the results depend on the processing

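No paired analysis was possible because each group had 1 library, and no replicate could be left out. The number of genes at least 25% higher in mesenchyme lay between 12 (cells scored G1) and 18 (cluster shares of the control library) under the other settings that kept the 25% limit, and was 7 at 1.5-fold. In G1 cells 26 genes were counted, against 30 in the main setting. Slc2a3, Pfkp and Eno2 had log2 ratios of 0.655, 0.72 and 1.41 there, but under 100 UMIs, and so were not among the 12. No counted gene of the module was 20% or more lower in mesenchyme under any setting tried. The median over the module left the range set by the median lower and upper counting bounds in 4 cases, with 0.063 against 0.27 in neuron-like cells scored G2M (12 genes counted), 0.11 in G1 and 0.50 in S against 0.37 in cluster 1, and 0.0749 against 0.36 in G2M cells of the mural-like cluster (12 genes counted). The cause was not tested. In mesenchyme, 387 of 450 values of single genes under the alternatives stayed inside the interval of the main value. Of the 16 genes that were at least 25% higher, Eno2 (-0.42 in S cells) and Egln3 (-0.31 in G1 cells) changed sign. Eno2 had under 100 UMIs in S cells and Egln3 under 100 in G1 cells, so neither was counted there. Leaving out cluster 5 was chosen after the data were seen. Without integration, neurons and progenitors fell into 1 cluster, so only mesenchyme-like and glia-like values were computed. Depth limits genes near 1 CPM, such as Aldoc and Eno2.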
